A study of Mus musculus with 15 samples.

Results

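Metalloproteinases and their inhibitors were followed across 15 poly-A RNA libraries of mouse small intestinal organoids. Genes were taken by symbol from the count tables, as all Mmp, Adam, Adamts and Adamtsl genes and the Timp genes, with Mmp7 left out. This gave 83 of the 78298 genes listed, made up of 22 matrix metalloproteinases (MMP), 33 ADAM, 19 ADAMTS, 5 ADAMTS-like and 4 TIMP genes. The choice rested on names alone and used no measured value.

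The organoids came from crypts of female C57BL/6J mice and carried lentiviral transgenes under the weak, ubiquitous L30 promoter, with antibiotic selection, so that the controls were transduced and selected too. Control organoids expressed the V5-tagged HaloTag with a nuclear localization signal from 1 transgene with a Puro cassette (Halo-NLS organoids). The Sox9-Halo organoids and Sox9-mEGFP organoids expressed V5-tagged SOX9 fused to the HaloTag or to mEGFP, also with Puro. The Sox9-Halo spheroids carried in addition H2B-mEGFP with a Zeo cassette, and the Sox9-mEGFP spheroids H2B-mScarletI with a Neo cassette. Each of these 5 groups had 3 libraries, labelled as biological replicates. The lines were polyclonal when made, and the spheroids come from longer culture and a second transduction. Morphology, time in culture and the second transgene therefore cannot be told apart between spheroids and organoids. The study also orders the 5 groups by passage number, with the Halo-NLS organoids first and the Sox9-Halo spheroids last. Between the spheroids of the Sox9 lines, the SOX9 tag, the second transgene and time in culture thus cannot be told apart. Nor can SOX9 and time in culture between the Sox9 organoids and the Halo-NLS organoids.

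MMPs are zinc enzymes that cut extracellular matrix, and many are secreted as inactive precursors. ADAM proteins are membrane-bound relatives, several of which are sheddases that release growth factors, cytokines and receptors from the cell surface. ADAMTS enzymes are secreted and process matrix proteins such as proteoglycans and collagens, and ADAMTS-like proteins share their matrix-binding modules but lack the protease domain. TIMPs are secreted proteins that block the active site of MMPs and of some ADAM and ADAMTS enzymes. In the gut these families are best known from wound repair, inflammation and stromal remodelling.

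Libraries held 28062722 to 40559766 counts on genes, with a median of 33491297. Between 24214 and 40375 genes had at least 1 count, the most in Halo-NLS organoids replicate 3, which also held 34 counts of the T cell gene Cd3e, against at most 5 in any other library. It also had the most counts of markers of other cell types, with 17 of Ptprc, 10 of Cdh5 and 10 of Col3a1. Other markers, such as Itgam (22) and Cd68 (22), were not highest there, and the source of these reads was not tested. Normalized Sox9 counts lay between 301.9 and 759.8 in Halo-NLS organoids and between 1320 and 23380 in all others, the lowest in Sox9-Halo organoids replicate 1, and these counts do not separate transgene from endogenous reads. By rank correlation across the 17560 genes tested, Halo-NLS organoids replicate 1 was closest to Sox9-mEGFP organoids replicate 2 rather than to a library of its own group. The 7 epithelial marker genes summed to between 5710 and 12200 CPM (counts scaled to the library's total) per library. The 12 markers of fibroblasts and smooth muscle summed to 0.537 to 4.16 CPM, the 9 of blood cells to 2.3 to 11.4 CPM and the 5 of endothelium to 0.395 to 3.52 CPM.

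Differences were tested with edgeR's quasi-likelihood test on TMM-scaled counts, in 1 fit of all 15 libraries, and p-values were adjusted by Benjamini-Hochberg over every gene tested. Calls required 3 things together, namely an adjusted p no higher than 0.01, a change of 2-fold or more and an average of 10 or more normalized counts across the libraries. Of the 83 genes, 29 passed the filter on low counts and could be tested, and 54 could not. The tested genes were 11 ADAM, 5 ADAMTS, 3 ADAMTS-like, 7 MMP and 3 TIMP genes.

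The spheroids of both lines differed from their own organoids in which inhibitors and which enzymes they expressed. Timp1, Timp2, Adam8, Adam9, Adam28, Mmp15, Adamtsl3 and Adamtsl4 rose in both lines, and Timp3 fell in both. In Sox9-Halo spheroids 9 of the 29 tested genes rose and 3 fell relative to Sox9-Halo organoids, where 25.2% of all tested genes were called (10.5% higher and 14.7% lower). In Sox9-mEGFP spheroids 9 were higher and 2 lower, against 16.4% of all tested genes (8.53% higher and 7.86% lower). The 8 genes higher in both lines are 88.9% of the higher calls in either line, and these comparisons share no library. The same overlap was not counted over all tested genes, so it is not read as a trait of these families. The median log2 fold change of the 29 was 1.34 in the Sox9-Halo line and 0.55 in the Sox9-mEGFP line, beside -0.08 and -0.04 for all genes tested. With genes near 0 counts set to the smallest fold their counts allow, these medians were 1.34 over 29 genes and 0.56 over the 28 that have such a fold. A gene passes the filter when it is present in 1 group, so these counts describe the tested genes and not the 83.

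**Figure D1:**
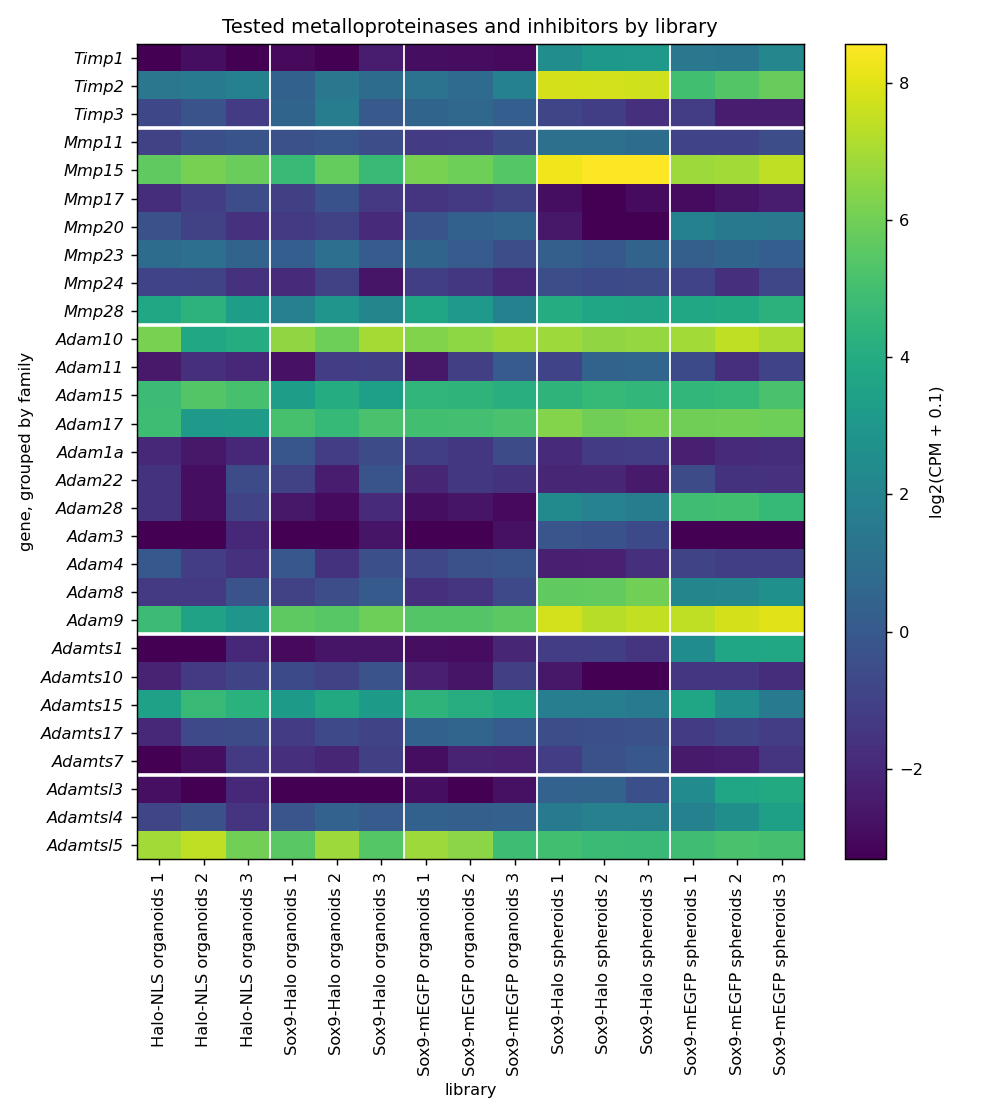
Colour gives log2(CPM + 0.1) of the 29 tested genes (rows, grouped by family) in the 15 libraries (columns, grouped by line and shape). Timp2, Mmp15, Adam8, Adam9 and Adam28 are brighter in all 6 spheroid libraries than in the 9 organoid libraries, and Adamts1 and Adamtsl3 are brightest in Sox9-mEGFP spheroids.

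Timp2 showed the largest gain in amount among the inhibitors. The gene (ENSMUSG00000017466, chromosome 11 from 118191887 to 118246566 in GRCm39) encodes a secreted inhibitor that also takes part in activating pro-MMP2. Its normalized counts were 39.3, 85.6 and 58.8 in Sox9-Halo organoids and 7526, 7244 and 6897 in Sox9-Halo spheroids. They were 74.4, 56.4 and 121.6 in Sox9-mEGFP organoids and 1052, 1364 and 1881 in Sox9-mEGFP spheroids, with 82.7, 98.7 and 121.7 in Halo-NLS organoids. Every spheroid library lay above every organoid library for Timp2, and all Sox9-Halo spheroids lay above all Sox9-mEGFP spheroids. The log2 fold change from organoids to spheroids was 6.89 (SE 0.39, adjusted p = 6.73e-09) for Sox9-Halo and 4.08 (SE 0.35, adjusted p = 7.6e-07) for Sox9-mEGFP. The Sox9-Halo change was the larger by 2.81 on the log2 scale (SE 0.45, adjusted p = 0.000567), tested as the difference between the lines. Per length, Timp2 reached 202.4 ± 5.5 TPM (SD, n = 3; counts scaled by exon length and by library) in Sox9-Halo spheroids and 39.1 ± 11.3 TPM in Sox9-mEGFP spheroids, beside 1.61 ± 0.61 and 2.14 ± 1.07 TPM in their organoids. Of its annotated exon bases, 7.4% lie in another gene, Cep295nl, and reads there were not counted.

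Timp1 (ENSMUSG00000001131, chromosome X from 20736316 to 20740976), an inhibitor known to be induced in injured and inflamed tissue, was almost absent from organoids and present in every spheroid library. Libraries of Halo-NLS organoids held 0, 1.13 and 0 normalized counts of Timp1, those of Sox9-Halo organoids 0.79, 0 and 2.89 and those of Sox9-mEGFP organoids 1.20, 1.03 and 0.77. Normalized counts were 183.8, 261.7 and 282 in Sox9-Halo spheroids and 87.7, 80.2 and 149.7 in Sox9-mEGFP spheroids. The spheroid and organoid values did not overlap. With 754 reads in the Sox9-Halo spheroids and 4 in the Sox9-Halo organoids, the rise was 207-fold, with an exact 95% interval of 80.6- to 762-fold that covers counting error only (adjusted p = 1.01e-07). For Sox9-mEGFP, 340 reads stood against 3, a 110-fold rise with an interval of 37.2- to 534-fold (adjusted p = 1.36e-06). Between the spheroids, the log2 difference of 1.20 (SE 0.38) did not pass (adjusted p = 0.0303), although all Sox9-Halo values were the higher.

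Timp3 (ENSMUSG00000020044, chromosome 10 from 86136236 to 86185371), the TIMP that binds to matrix and inhibits ADAM17 as well as MMPs, went the other way at a low level. Normalized counts of Timp3 were 43.2, 106.7 and 29.9 in Sox9-Halo organoids and 15.2, 12.2 and 7.12 in Sox9-Halo spheroids. In the Sox9-mEGFP line they were 43.2, 49.3 and 35.4 in organoids and 11.4, 2.97 and 2.82 in spheroids. Halo-NLS organoids held 16.8, 23.8 and 11.2, so that Timp3 was lower there than in all 6 Sox9 organoid libraries and near the Sox9-Halo spheroids. It fell by 2.39 on the log2 scale (SE 0.54, adjusted p = 0.0023) in the Sox9-Halo line and by 2.84 (SE 0.58, adjusted p = 0.00174) in the Sox9-mEGFP line. The call in the Sox9-Halo line was lost without organoid replicate 2 or spheroid replicate 3, and that in the Sox9-mEGFP line without spheroid replicate 2 or 3. Against Halo-NLS organoids, the Sox9-Halo organoids gave 1.78 (SE 0.53, adjusted p = 0.0317) and the Sox9-Halo spheroids -0.61 (SE 0.58, adjusted p = 0.407), neither of which passed. Exons of Syn3, in which Timp3 is nested, cover 21.3% of its exon bases. Timp4, the remaining inhibitor, had 48 reads in all 15 libraries together and was not tested.

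The 250 bases before the outermost annotated start of each tested gene were read from GRCm39 and searched on both strands for the AP-1 letters TGAGTCA or TGACTCA, the TEAD letters GGAATG or CATTCC and the SOX letters AACAAT or ATTGTT. The sequences are shown for the 2 inhibitors and the 2 ADAM genes with the largest rises in both lines, and no match overlaps another. Matches are in capitals, and the sequences run 5′ to 3′ toward the start.
Timp1, chrX:20736066-20736315, plus strand: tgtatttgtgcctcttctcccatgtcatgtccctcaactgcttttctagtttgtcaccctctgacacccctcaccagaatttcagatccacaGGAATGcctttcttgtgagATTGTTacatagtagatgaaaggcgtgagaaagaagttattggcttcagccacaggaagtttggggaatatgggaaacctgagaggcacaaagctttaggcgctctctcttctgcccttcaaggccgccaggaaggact
Timp2, chr11:118246567-118246816, minus strand: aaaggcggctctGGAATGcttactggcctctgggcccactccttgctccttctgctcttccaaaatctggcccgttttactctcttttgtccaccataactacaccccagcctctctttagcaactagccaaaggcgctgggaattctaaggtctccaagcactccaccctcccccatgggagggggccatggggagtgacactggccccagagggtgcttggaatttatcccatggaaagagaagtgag
Adam8, chr7:139572476-139572725, minus strand: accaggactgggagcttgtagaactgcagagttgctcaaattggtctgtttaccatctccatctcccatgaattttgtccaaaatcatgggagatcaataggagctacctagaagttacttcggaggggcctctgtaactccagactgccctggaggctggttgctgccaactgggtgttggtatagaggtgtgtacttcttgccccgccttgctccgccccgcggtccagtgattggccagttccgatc
Adam28, chr14:68893292-68893541, minus strand: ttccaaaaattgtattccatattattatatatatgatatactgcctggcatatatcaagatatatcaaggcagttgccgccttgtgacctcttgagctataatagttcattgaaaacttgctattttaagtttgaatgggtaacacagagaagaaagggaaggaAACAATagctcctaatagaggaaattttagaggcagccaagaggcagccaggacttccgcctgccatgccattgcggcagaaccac
Timp1 held a TEAD match starting 158 bases and a SOX match 139 bases before the start, Timp2 a TEAD match at 238 bases, Adam28 a SOX match at 86 bases, and Adam8 held none of these letters. Of the 8 genes higher in the spheroids of both lines, 2 held the TEAD letters, 2 the SOX letters and 0 the AP-1 letters. Among the upstream regions of 17551 tested genes, 12.0% held the TEAD letters, 8.3% the SOX letters and 3.8% the AP-1 letters. A match describes the letters only, and a window without one says nothing of the factor.

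Among the MMPs, 7 of 22 were tested and Mmp15 made up most of the family's RNA. Mmp15 (ENSMUSG00000031790, chromosome 8 from 96078895 to 96101708) encodes MT2-MMP, a membrane-anchored MMP of epithelial cells. Sox9-Halo organoids held 842.8, 1820 and 895.7 normalized counts of Mmp15 and Sox9-Halo spheroids 10610, 12560 and 12600. Counts were 2402, 2011 and 1431 in Sox9-mEGFP organoids, 3791, 4070 and 5819 in Sox9-mEGFP spheroids and 1700, 2309 and 1925 in Halo-NLS organoids. All spheroid values exceeded all organoid values, and the Sox9-Halo spheroids were the highest. The log2 fold change was 3.33 (SE 0.32, adjusted p = 7.04e-07) for Sox9-Halo and 1.23 (SE 0.29, adjusted p = 0.00496) for Sox9-mEGFP, a difference between the lines of 2.10 (SE 0.41, adjusted p = 0.00277). The Sox9-mEGFP call was lost when organoid replicate 2 or 3 or spheroid replicate 2 or 3 was left out, and with the replicate number as a block within the line. Per length, Mmp15 reached 277.8 ± 43.2 TPM (SD, n = 3) in Sox9-Halo spheroids, which was 95.8% of the summed TPM of the 22 MMP genes, and 102.9 ± 24.1 TPM or 86.9% in Sox9-mEGFP spheroids.

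Mmp11 and Mmp20 were each called in 1 line. Mmp11 (ENSMUSG00000000901, chromosome 10 from 75759055 to 75772330), stromelysin-3, had normalized counts of 22.0, 26.9 and 20.3 in Sox9-Halo organoids and 65.5, 65.4 and 56.9 in Sox9-Halo spheroids. The Sox9-mEGFP line had 10.8, 11.3 and 18.5 in organoids and 14.0, 13.9 and 19.8 in spheroids, which overlap. The log2 fold changes were 1.44 (SE 0.30, adjusted p = 0.00135) and 0.21 (SE 0.34, adjusted p = 0.724), but the difference of 1.23 between the lines did not pass (SE 0.45, adjusted p = 0.0967). The Sox9-Halo call was lost with no filter on low counts (adjusted p = 0.0101). Mmp20 (ENSMUSG00000018620, chromosome 9 from 7628232 to 7674980), enamelysin, is a protease of tooth enamel. It was at 10.2, 13.5 and 5.79 in Sox9-Halo organoids and 2.34, 0 and 0 in Sox9-Halo spheroids, a 15-fold fall with an exact 95% counting interval of 3.84- to 129-fold (33 reads against 2, adjusted p = 0.00186). That call was lost without Sox9-Halo spheroids replicate 2 or 3. In Sox9-mEGFP organoids Mmp20 was at 25.2, 39 and 45.4 and in their spheroids at 122.8, 91.0 and 87.5, with a log2 fold change of 1.45 (SE 0.43) that did not pass (adjusted p = 0.0191). These values do not overlap. The rise passed with DESeq2 (adjusted p = 0.00553), with only the compared libraries (adjusted p = 0.00589) and with no filter on low counts (adjusted p = 0.00917). The difference of -5.10 between the lines did pass (SE 0.91, adjusted p = 0.00136). Mmp28, an MMP of epithelia, had normalized counts of 118.7, 240.4 and 141.7 in Sox9-Halo organoids and 537.3, 420.7 and 402.1 in spheroids, and just missed the threshold at 1.44 (SE 0.41, adjusted p = 0.0101). With the replicate number as a block within the line it passed (1.45, adjusted p = 0.00754). Halo-NLS organoids held 455.9, 687.2 and 324.2, which overlap the Sox9-Halo spheroids (-0.11, SE 0.40, adjusted p = 0.84). Against these controls the Sox9-Halo organoids were at -1.55 (SE 0.41, adjusted p = 0.0207), which passed with DESeq2 (-1.57, adjusted p = 0.00374) but not with edgeR. In the Sox9-mEGFP line the change of Mmp28 from organoids to spheroids was 0.99 (SE 0.40, adjusted p = 0.0846).

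**Figure D2:**
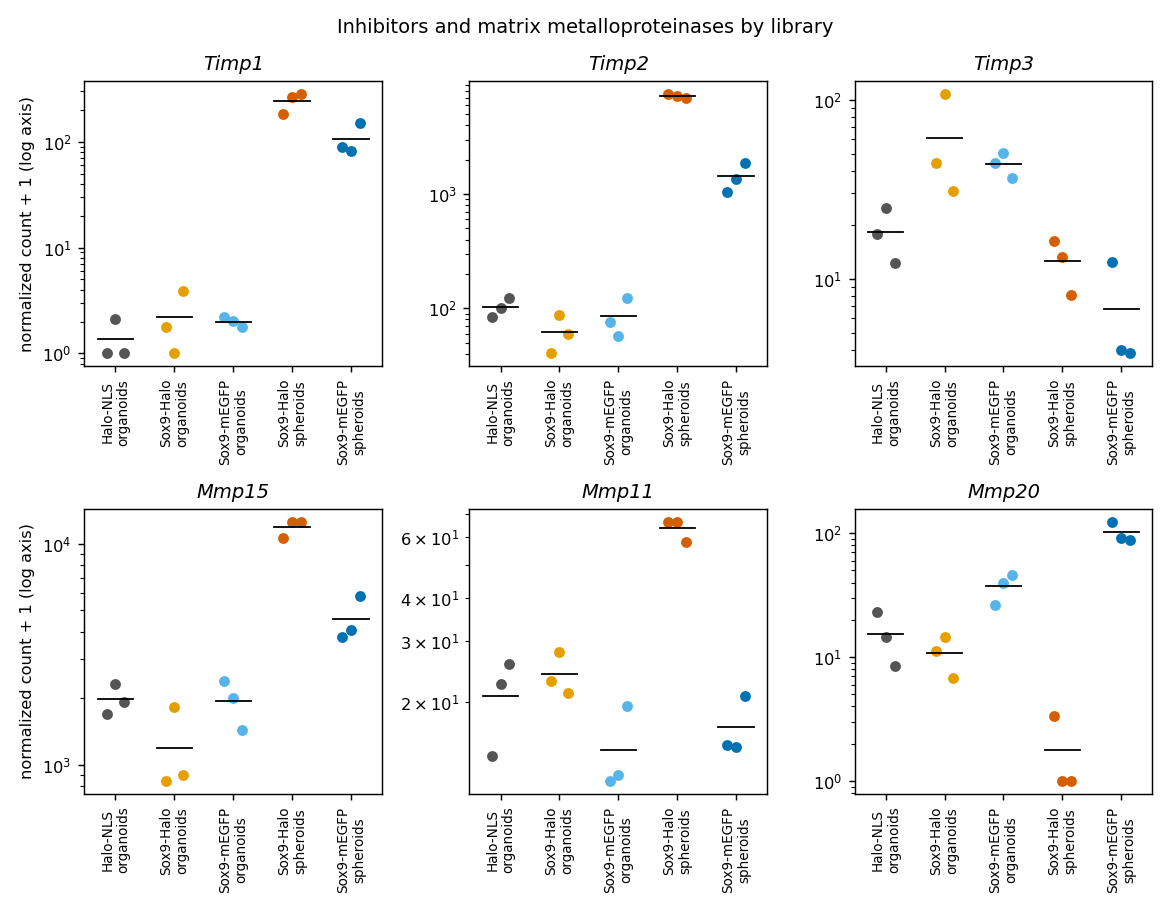
Each point is the normalized count plus 1 of 1 library (log axis) and each line the mean of 3 libraries, by group, for 3 inhibitors and 3 MMPs. Timp1, Timp2 and Mmp15 are higher in all 6 spheroid libraries than in any organoid library, Timp3 is lower in spheroids than in the organoids of the same line, and Mmp20 is near 0 only in Sox9-Halo spheroids.

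Apart from Mmp11, the secreted collagenases, gelatinases, stromelysins and the macrophage elastase Mmp12 were close to absent. Over all 15 libraries together, Mmp2 had 20 reads, Mmp3 had 6, Mmp8 had 6, Mmp9 had 3, Mmp10 had 2, Mmp12 had 11 and Mmp13 had 14. The membrane-type Mmp14, the main collagenase at the surface of stromal cells, had 32. These were among 15 MMP genes that were not tested, none with more than 46 reads in all, and Mmp1a had none. Halo-NLS organoids replicate 3 held 5 of the Mmp3 reads and 4 each of Mmp8, Mmp12 and Mmp1b, but 1 of Mmp2 and 2 of Mmp13. Mmp23 lay between 20.0 and 63.5 normalized counts in every library and Mmp24, a membrane-type MMP best known from neurons, between 1.93 and 21.1, with no call in any comparison. Mmp17, a GPI-anchored MMP, was tested but had a mean normalized count of 8.16, under the minimum of 10. It lay between 9.64 and 23.1 in Sox9-Halo organoids and between 0 and 1.17 in Sox9-Halo spheroids, and between 8.4 and 13.1 in Sox9-mEGFP organoids and between 0.88 and 2.82 in their spheroids. Against 3 counts per library, Mmp17 was at least 5.04-fold lower in Sox9-Halo spheroids (edgeR, adjusted p = 0.000231). In Sox9-mEGFP spheroids it was at least 3.77-fold lower (adjusted p = 0.00879), and only the mean kept both from a call.

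The ADAM genes had 11 tested members of 33, of which 3 rose in the spheroids of both lines and none fell, where 10.5% of all tested genes rose and 14.7% fell in the Sox9-Halo line and 8.53% and 7.86% in the Sox9-mEGFP line. Adam8 (ENSMUSG00000025473, chromosome 7 from 139558845 to 139572475), a protease best known from leukocytes and induced in inflamed and tumour epithelia, was at 13.4, 20.2 and 30.9 normalized counts in Sox9-Halo organoids and at 1670, 1715 and 2197 in Sox9-Halo spheroids. In the Sox9-mEGFP line it was at 7.2, 8.21 and 16.9 in organoids and 141.2, 147.4 and 203.3 in spheroids, and in Halo-NLS organoids at 10.3, 10.2 and 23.6. Spheroids lay above organoids throughout, and the Sox9-Halo spheroids far above the Sox9-mEGFP spheroids. The log2 fold changes were 6.44 (SE 0.43, adjusted p = 2.85e-08) and 3.86 (SE 0.41, adjusted p = 5.38e-06), and between the spheroids 3.50 (SE 0.37, adjusted p = 4.97e-06). The difference between the lines in the change from organoids was 2.58 (SE 0.55, adjusted p = 0.00488), a call that was lost when any 1 of 7 libraries was left out.

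Adam28 (ENSMUSG00000014725, chromosome 14 from 68843476 to 68893291), another gene first described in lymphocytes, showed the opposite order of the spheroid lines. Adam28 had normalized counts of 166.2, 123.4 and 102.3 in Sox9-Halo spheroids and 1007, 1037 and 821.7 in Sox9-mEGFP spheroids. Organoids held 2.36, 0.96 and 5.79 in the Sox9-Halo line, 1.20, 2.05 and 0.77 in the Sox9-mEGFP line and 7.75, 1.13 and 14.9 in the Halo-NLS controls. The log2 fold change was 5.39 (SE 0.57, adjusted p = 2.2e-06) in the Sox9-Halo line. For Sox9-mEGFP, 3069 reads stood against 4, a 742-fold rise with an exact counting interval of 289- to 2720-fold (adjusted p = 1.6e-07). Sox9-Halo spheroids were lower than Sox9-mEGFP spheroids by -2.87 on the log2 scale (SE 0.44, adjusted p = 0.000167), whereas the difference in the change from organoids did not pass (-4.01, SE 0.99, adjusted p = 0.0128). That difference passed with DESeq2 (-4.06, adjusted p = 0.000612) and with no low-count filter (adjusted p = 0.000106). Blood cell markers were read beside these genes. In the spheroid libraries Ptprc, which encodes CD45, had at most 5 counts, Cd3e at most 3 and Adgre1 at most 2. Csf1r had 77, 74 and 188 counts in Sox9-mEGFP spheroids and 2, 3 and 11 in Sox9-Halo spheroids, and Cd68 had 111 to 228 counts in spheroids and 34 to 61 in the Sox9 organoids. Itgam went the other way, from 52, 42 and 33 counts in Sox9-Halo organoids to 0, 1 and 0 in spheroids and from 100, 77 and 109 to 30, 24 and 7 in the Sox9-mEGFP line. The 9 blood markers summed to 3.35 to 8.22 CPM in Sox9-Halo spheroids and 6.85 to 11.4 CPM in Sox9-mEGFP spheroids, and 7 and 4 of them had at most 3 counts in every library of these groups. Their part in the Adam8 and Adam28 values was not tested.

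Adam9 was, per length, the most abundant ADAM in spheroids. The gene (ENSMUSG00000031555, chromosome 8 from 25439626 to 25507096) encodes a widely expressed sheddase. Its normalized counts were 1620, 1488 and 2041 in Sox9-Halo organoids, 7089, 5152 and 5916 in Sox9-Halo spheroids, 1369, 1369 and 1581 in Sox9-mEGFP organoids and 5705, 7471 and 8708 in Sox9-mEGFP spheroids. Halo-NLS organoids had 949.3, 384.4 and 246. The groups were ordered without overlap from Halo-NLS organoids through the Sox9 organoids to the spheroids, while both spheroid lines overlapped. From organoids to spheroids the log2 fold change was 1.82 (SE 0.37, adjusted p = 0.000913) for Sox9-Halo and 2.34 (SE 0.37, adjusted p = 0.00022) for Sox9-mEGFP. In TPM, Adam9 reached 173.4 ± 20.3 and 204.5 ± 42.5 (SD, n = 3) in the spheroids, beside 46.8 ± 12.5 and 37.0 ± 6.74 in the organoids of the same lines and 10.7 ± 7.5 in Halo-NLS organoids. Its exons share 9.1% of their bases with Tm2d2.

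Adam10 and Adam17, the main sheddases of Notch receptors and of EGF family ligands, were expressed in every library. Adam17 (ENSMUSG00000052593, chromosome 12 from 21373510 to 21423672) had normalized counts of 1135, 819.3 and 1185 in Sox9-Halo organoids and 2772, 2092 and 2319 in Sox9-Halo spheroids, with a log2 fold change of 1.19 (SE 0.37, adjusted p = 0.0163). With the replicate number as a block within the Sox9-Halo line this change passed (1.16, adjusted p = 0.00113). In the Sox9-mEGFP line it was at 1030, 1080 and 1196 in organoids and 2083, 2167 and 2056 in spheroids (0.93, SE 0.36, adjusted p = 0.0724). In neither line did organoids and spheroids overlap. Adam10 (ENSMUSG00000054693, chromosome 9 from 70586221 to 70687511) was at 3246, 2058 and 4160 in Sox9-Halo organoids and 3816, 3214 and 3464 in Sox9-Halo spheroids, which overlap (0.15, SE 0.47, adjusted p = 0.832). It was at 2676, 3065 and 3857 in Sox9-mEGFP organoids and 4027, 5731 and 4490 in their spheroids (0.57, SE 0.47, adjusted p = 0.442). Adam15 (ENSMUSG00000028041, chromosome 3 from 89245846 to 89257511), an adhesion-related ADAM with an integrin-binding motif, gave 0.93 (SE 0.24, adjusted p = 0.00603) in the Sox9-Halo line, under a fold change of 2, and 0.46 (SE 0.24, adjusted p = 0.188) in the Sox9-mEGFP line. It shares 19.1% of its exon bases with other genes.

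**Figure D3:**
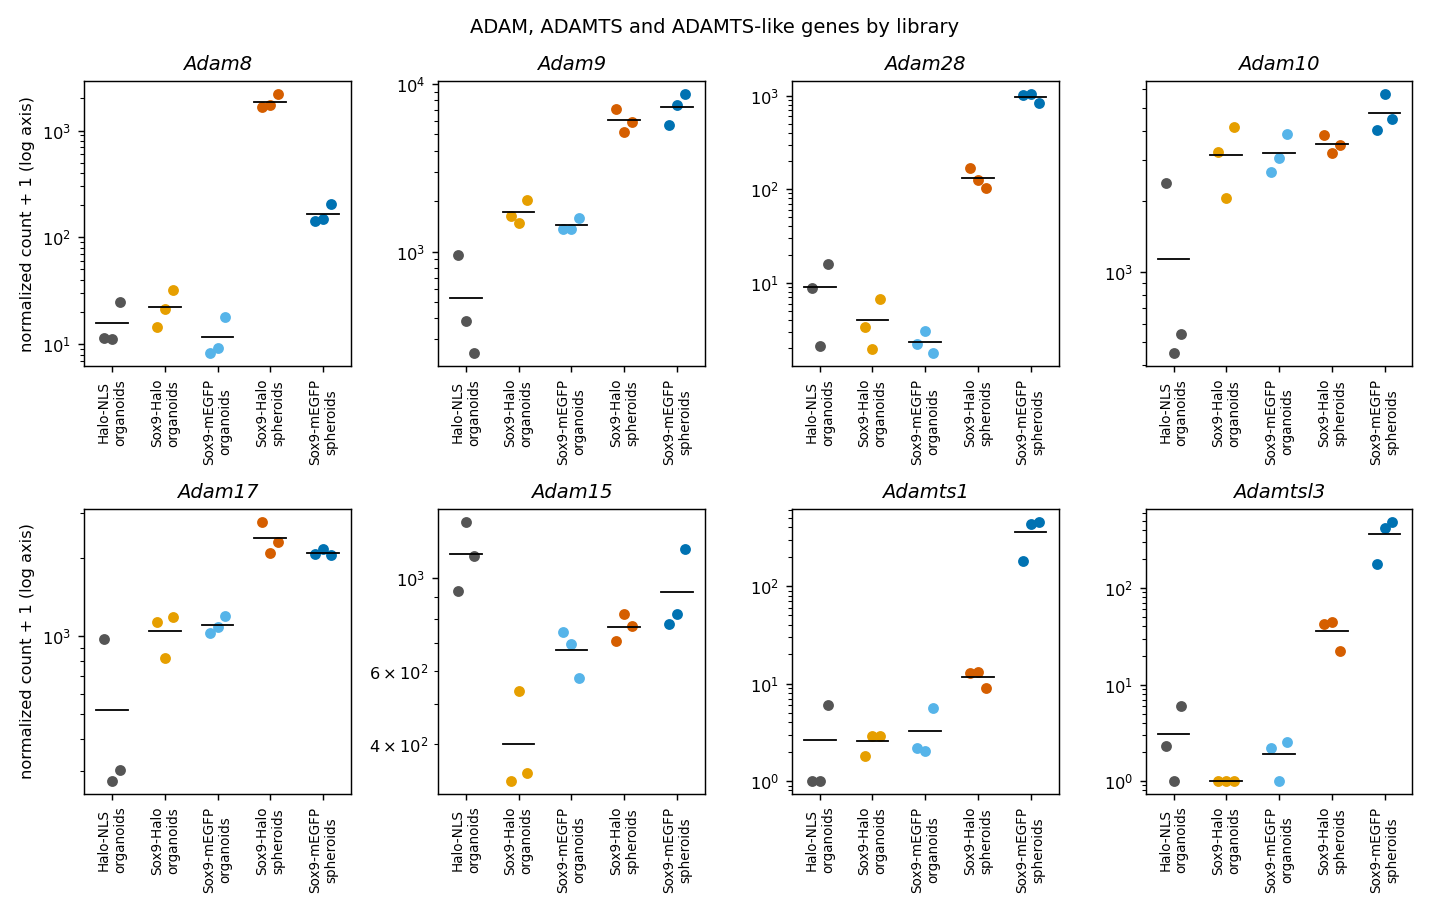
Each point is the normalized count plus 1 of 1 library (log axis) and each line the mean of 3 libraries, by group, for 6 ADAM genes, Adamts1 and Adamtsl3. Adam8 is highest in Sox9-Halo spheroids, Adam28, Adamts1 and Adamtsl3 in Sox9-mEGFP spheroids, and for Adam9, Adam10 and Adam17 Halo-NLS organoids replicate 1 lies above the other Halo-NLS libraries.

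The remaining tested ADAM genes were low. Adam11, which encodes a neuronal ADAM without protease activity, lay between 1.57 and 12.5 normalized counts in Sox9-Halo organoids and between 14.1 and 45.4 in Sox9-Halo spheroids. This change (2.03, SE 0.74, adjusted p = 0.0389) passed with the replicate block within the line (adjusted p = 0.00431) and with no low-count filter (adjusted p = 0.00102). Against Halo-NLS organoids, Sox9-Halo spheroids were at 2.80 (SE 0.82, adjusted p = 0.0112) for Adam11, which passed with DESeq2 (adjusted p = 0.00638). Adam4 and Adam1a, genes known from the testis, had at most 28.4 and 26.7 normalized counts in any library. Adam22, a receptor of nerve cells, had at most 25.1, and 31.1% of its exon bases lie in Sri. Adam3 was at 25.8, 23.4 and 17.8 in Sox9-Halo spheroids and at 0 in all Sox9-mEGFP spheroids, but its mean of 5.02 was under the minimum. Over Sox9-Halo organoids its rise was at least 8.22-fold against 3 counts per library (adjusted p = 0.00151). None of these 5 genes was called in a comparison by the fit used for the calls, but Adam11, Adam3, Adam4 and Adam1a each passed under some alternative. Over Sox9-Halo organoids, Adam3 passed with only the compared libraries (4.92, adjusted p = 0.000721). Among the 22 ADAM genes not tested, none had more than 46 reads in all and 6 had none.

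In the fit used for the calls, ADAMTS genes were called in 1 line at a time. Adamts1 (ENSMUSG00000022893, chromosome 16 from 85590579 to 85600009), a protease of the proteoglycans versican and aggrecan, was at 180.7, 430.5 and 457.4 normalized counts in Sox9-mEGFP spheroids and at 1.20, 1.03 and 4.62 in Sox9-mEGFP organoids, a log2 fold change of 7.09 (SE 0.68, adjusted p = 2.11e-06). Sox9-Halo spheroids had 11.7, 12.2 and 8.01 beside 0.79, 1.92 and 1.93 in their organoids, which do not overlap, but the change of 2.72 (SE 0.79) did not pass (adjusted p = 0.0122). This change passed with DESeq2 (2.82, adjusted p = 0.00394) and with no low-count filter (adjusted p = 0.000272). Between the spheroids Adamts1 was lower in the Sox9-Halo line by -5.06 on the log2 scale (SE 0.58, adjusted p = 1.22e-05). The difference between the lines in the change from organoids did not pass (-4.37, SE 1.30, adjusted p = 0.038). That difference passed with DESeq2 (-4.34, adjusted p = 0.00128) and with no low-count filter (adjusted p = 0.00132). Beside Adamts1, which stromal cells also express, the 12 fibroblast and smooth muscle markers summed to 0.537 to 0.661 CPM in Sox9-mEGFP spheroids and 1.33 to 1.86 CPM in Sox9-mEGFP organoids. In the Sox9-Halo line the sum was higher in spheroids, at 2.2 to 2.44 CPM against 0.948 to 1.42 CPM. The markers did not move together. Dcn and Lum had no count in any spheroid library, whereas Des had 23, 59 and 57 counts and Col1a1 32, 12 and 16 in Sox9-Halo spheroids, against at most 2 and 7 in their organoids. Their part in the Adamts1 values was not tested.

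Adamts15 (ENSMUSG00000033453, chromosome 9 from 30810451 to 30833863), a protease of versican and aggrecan, was the most abundant ADAMTS in all groups except Sox9-mEGFP spheroids by TPM. Its normalized counts were 295.6, 486.6 and 289.2 in Sox9-Halo organoids and 111.2, 109.4 and 94.3 in Sox9-Halo spheroids, and it fell by 1.77 on the log2 scale (SE 0.46, adjusted p = 0.00603). The call was lost without organoid replicate 2 or any 1 of the spheroid replicates. In Sox9-mEGFP spheroids it was at 421, 184.1 and 91.3 beside 711.9, 555.2 and 447.1 in organoids (-1.30, SE 0.45, adjusted p = 0.0422). With no low-count filter this fall passed (adjusted p = 0.0014). Adamts17 (ENSMUSG00000058145, chromosome 7 from 66489439 to 66802919), linked to fibrillin microfibrils, went from 39.6, 46.2 and 33.1 in Sox9-mEGFP organoids to 10.5, 14.8 and 11.3 in spheroids and fell by 1.69 (SE 0.37, adjusted p = 0.003), a call lost without organoid replicate 2 or spheroid replicate 1 or 3 (adjusted p up to 0.0162). In the Sox9-Halo line it stood at 11.0, 17.3 and 14.5 in organoids and 21.1, 21.5 and 22.2 in spheroids. The difference between the lines was 2.29 (SE 0.53, adjusted p = 0.00891), a call lost with any 1 of the 12 Sox9 libraries left out. Adamts10, also linked to fibrillin, was at 18.1, 13.5 and 24.1 in Sox9-Halo organoids and at 2.34, 0 and 0 in Sox9-Halo spheroids, with a mean of 8.61 that was under the minimum. Its fall was at least 6.19-fold against 3 counts per library (adjusted p = 0.000745).

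ADAMTS-like genes gave 2 rises that both lines shared. Adamtsl3 (ENSMUSG00000070469, chromosome 7 from 81984645 to 82263658), a matrix glycoprotein gene, had no read in Sox9-Halo organoids and normalized counts of 41.0, 43.0 and 21.4 in Sox9-Halo spheroids, at least 12.9-fold higher against 3 counts per library (adjusted p = 5.59e-05). In Sox9-mEGFP organoids it was at 1.20, 0 and 1.54 and in their spheroids at 175.4, 418.6 and 486.6, a 367-fold rise with an exact counting interval of 125- to 1780-fold (1140 reads against 3, adjusted p = 4.37e-06). Sox9-Halo spheroids were lower than Sox9-mEGFP spheroids by -3.36 (SE 0.53, adjusted p = 0.000403). Adamtsl4 (ENSMUSG00000015850, chromosome 3 from 95583509 to 95595231), a fibrillin-binding protein gene, rose from 26.0, 40.4 and 31.8 to 100.7, 116.9 and 118.3 in the Sox9-Halo line (1.78, SE 0.38, adjusted p = 0.00149). In the Sox9-mEGFP line it rose from 39.6, 36.9 and 38.5 to 120.2, 196.9 and 358.6 (2.55, SE 0.38, adjusted p = 0.000138). The Sox9-Halo call was lost without organoid replicate 1, with an adjusted p of 0.0107. Adamtsl5 (ENSMUSG00000043822, chromosome 10 from 80174944 to 80184936) was the abundant member of this family in all 5 groups, with 66.8% to 99.4% of its summed TPM. Its log2 fold changes of -1.24 (SE 0.46, adjusted p = 0.0445) and -1.23 (SE 0.46, adjusted p = 0.0616) did not pass.

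**Figure D4:**
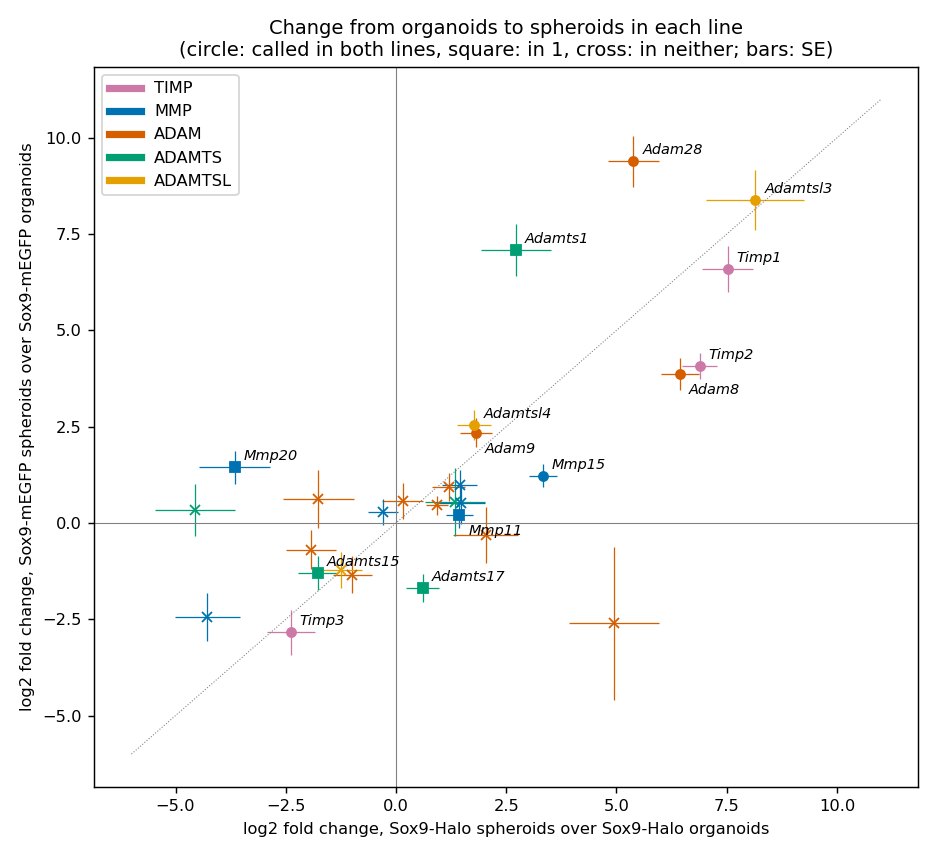
Each mark is 1 of the 29 tested genes, placed by its fitted log2 fold change from organoids to spheroids in the Sox9-Halo line (horizontal) and the Sox9-mEGFP line (vertical), with bars of 1 SE, and the dotted line marks equal changes. Circles are the 9 genes called in both lines. Fitted values of genes near 0 counts in a group, such as Adamtsl3 and Timp1, depend on the prior count of the fit.

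Summed over families in TPM, MMP genes went from 31.8 ± 12.9 to 289.9 ± 42.6 (SD, n = 3) in the Sox9-Halo line and from 47.0 ± 8.67 to 118.4 ± 25.3 in the Sox9-mEGFP line, as sums that were not tested. ADAM genes went from 137.5 ± 43.9 to 353.8 ± 30.3 and from 127.5 ± 28.2 to 371.3 ± 57.0. TIMP genes went from 2.56 ± 1.03 to 218.2 ± 9.42 and from 2.81 ± 1.02 to 45.8 ± 13.3. ADAMTS genes, the least abundant of the enzymes, went from 4.71 ± 0.97 to 2.58 ± 0.18 and from 6.86 ± 0.87 to 11.3 ± 1.72. ADAMTS-like genes went from 41.2 ± 22.3 to 21.7 ± 0.0196 and from 44.0 ± 22.0 to 31.3 ± 6.19. The MMP and TIMP sums were carried by 1 gene each, Mmp15 and Timp2, and the ADAM sum in spheroids by Adam9 with 49% and 55.1%. In bulk RNA a change in the share of cells that express a gene and a change per cell cannot be told apart.

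**Figure D5:**
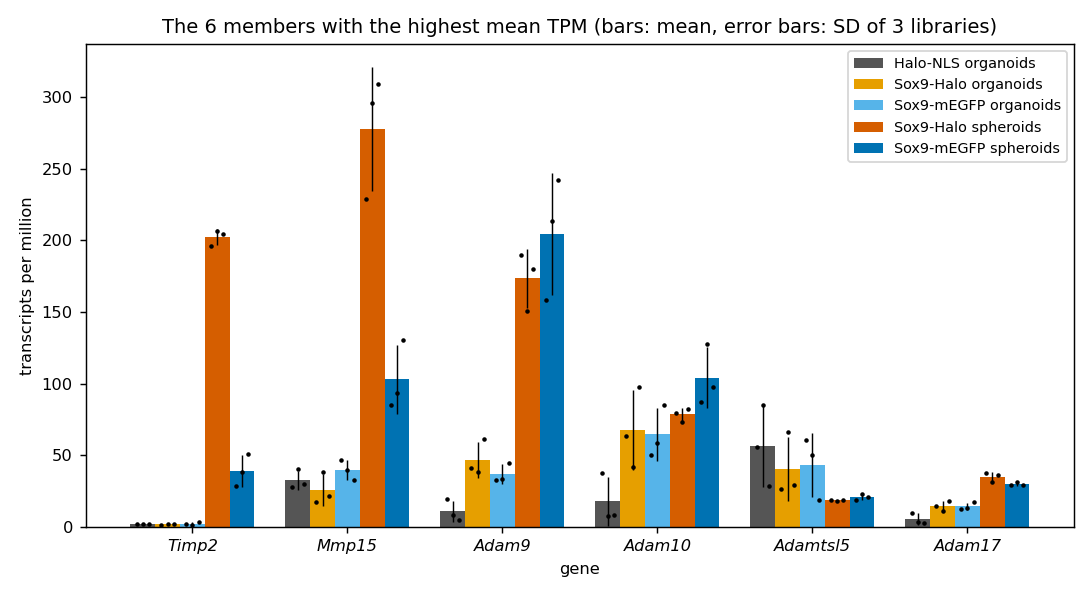
Bars give the mean TPM of 3 libraries, error bars the SD and points the libraries, for the 6 genes of the families with the highest mean TPM, by group. Timp2 and Mmp15 are highest in Sox9-Halo spheroids, at 202.4 and 277.8 TPM, while Adam9 is high in both spheroid lines.

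Organoids with SOX9 were next compared with the Halo-NLS organoids, both comparisons sharing the same 3 control libraries. The controls come first in the study's order by passage number, so SOX9 and time in culture cannot be told apart here. In Sox9-Halo organoids 1 gene rose and 1 fell, where 3.75% of all tested genes were called (2.49% higher and 1.26% lower). Adam9 was higher by 1.71 on the log2 scale (SE 0.37, adjusted p = 0.00929), and Adam15 fell by 1.51 (SE 0.25, adjusted p = 0.00193), from 930, 1365 and 1127 normalized counts to 325.5, 534.6 and 339.4. Both calls were lost when only the libraries of these groups were fitted, with adjusted p of 0.122 and 0.0611. That fit called 5 of all genes, where the fit of all libraries called 659. The Adam9 call was also lost without Halo-NLS organoids replicate 2 or 3 or any 1 Sox9-Halo organoid library. That of Adam15 was also lost without Halo-NLS organoids replicate 2 or Sox9-Halo organoids replicate 1 or 3. In Sox9-mEGFP organoids 0 genes were called by edgeR, against 2.76% of all tested genes (1.99% higher and 0.763% lower). At an unadjusted p under 0.05 there were 11 of 29, a share that was not counted over all genes and is not read as a trait of these families. DESeq2 called 2 of the 76 genes of the families with a value, and 1225 over all genes, where edgeR called 484. By edgeR, Adam9 stood in Sox9-mEGFP organoids at 1.45 (SE 0.37, adjusted p = 0.0217) and Adam15 at -0.76 (SE 0.24, adjusted p = 0.0475).

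Halo-NLS organoids replicate 1 weighed on the sheddases in these comparisons. Its normalized counts were 2392 for Adam10, 971.3 for Adam17 and 949.3 for Adam9, while the other two Halo-NLS libraries held 447.9 and 542.9 for Adam10, 274.4 and 301.9 for Adam17 and 384.4 and 246 for Adam9. With all libraries, Adam10 gave 1.49 (SE 0.48, adjusted p = 0.0454) in Sox9-Halo organoids and 1.51 (SE 0.48, adjusted p = 0.0494) in Sox9-mEGFP organoids. Adam17 gave 1.02 (SE 0.37, adjusted p = 0.0629) and 1.10 (SE 0.37, adjusted p = 0.0568). Without that library, Adam10 was called at 2.68 (adjusted p = 7.81e-05) and 2.70 (adjusted p = 7.04e-05), Adam17 at 1.87 (adjusted p = 8.15e-05) and 1.94 (adjusted p = 6.55e-05), and in Sox9-mEGFP organoids Adam9 at 2.19 (adjusted p = 0.000116). Calls over all genes went up as well without it, from 659 to 2370 in Sox9-Halo organoids and from 484 to 2183 in Sox9-mEGFP organoids. What sets this library apart was not tested.

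Between the Sox9-Halo and Sox9-mEGFP organoids 0 genes of the families were called by edgeR, where 0.456% of all tested genes were (0.29% higher and 0.165% lower). At an unadjusted p under 0.05 there were 7 of 29, a share that was not counted over all genes and is not read as a trait of these families. DESeq2 called 0 of the 76 genes of the families with a value, and 200 over all genes. The difference was -0.47 (SE 0.33, adjusted p = 0.916) for Timp2 and 0.93 (SE 0.42, adjusted p = 0.559) for Adam8. Between the spheroids of these lines Sox9-Halo had 4 genes at higher and 4 at lower levels, against 13.1% of all tested genes (3.59% higher and 9.56% lower). Timp2 (2.33, SE 0.32, adjusted p = 6.04e-05), Mmp15 (1.39, SE 0.29, adjusted p = 0.00259), Mmp11 (1.97, SE 0.32, adjusted p = 0.000269) and Adam8 were the higher. Adam28, Adamts1, Adamtsl3 and Mmp20 were the lower, the last at a 154-fold lower level with an exact counting interval of 42.3- to 1280-fold (adjusted p = 2.97e-06). Tested directly, the change from organoids to spheroids differed between the lines for 5 genes, against 7.37% of all tested genes (1.81% higher and 5.56% lower). Timp2, Adam8 and Mmp15 rose in both lines and more in Sox9-Halo. Adamts17 fell in Sox9-mEGFP and was not called in Sox9-Halo (0.60, SE 0.38, adjusted p = 0.228). Mmp20 fell in Sox9-Halo, and its value of 1.45 in Sox9-mEGFP did not pass. The SOX9 tag, the second transgene and time in culture differ between these spheroids along with the line and cannot be told apart.

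Against Halo-NLS organoids, Sox9-Halo spheroids had 10 genes higher and 3 lower (28.8% of all tested genes called, 13.6% higher and 15.2% lower) and Sox9-mEGFP spheroids 12 higher and 1 lower (27.4% called, 15.3% higher and 12.1% lower). These comparisons share their control libraries. Besides the 8 genes named above, Adam17 was higher in both, by 2.21 (SE 0.38, adjusted p = 0.000207) and 2.03 (SE 0.38, adjusted p = 0.000525) on the log2 scale. Adam10 passed in Sox9-mEGFP spheroids alone (2.07, SE 0.49, adjusted p = 0.0031), beside 1.63 (SE 0.49, adjusted p = 0.0119) in Sox9-Halo spheroids, where it passed without Halo-NLS organoids replicate 1 (2.83, adjusted p = 4.01e-06). The Sox9-mEGFP call was itself lost without Halo-NLS organoids replicate 2 or 3 or Sox9-mEGFP spheroids replicate 2, and, like that of Adam17, when only the compared libraries were fitted (adjusted p = 0.0314 and 0.0141). Adamtsl5 was the gene called lower in both. It was at 4079, 5790 and 2181 normalized counts in Halo-NLS organoids, 1045, 920.8 and 891.5 in Sox9-Halo spheroids and 1013, 1185 and 1106 in Sox9-mEGFP spheroids, and fell by 2.08 (SE 0.48, adjusted p = 0.00219) and by 1.87 (SE 0.47, adjusted p = 0.00468). The first call was lost without Halo-NLS organoids replicate 2 or Sox9-Halo spheroids replicate 2 or 3, and the second without Halo-NLS organoids replicate 2 or any 1 Sox9-mEGFP spheroid library (adjusted p up to 0.0116 and 0.0236). Adamts15 fell by 2.59 (SE 0.47, adjusted p = 0.000361) in Sox9-Halo spheroids, where Mmp20 was lower and Mmp11 higher (1.65, SE 0.31, adjusted p = 0.000519). In Sox9-mEGFP spheroids Mmp20 rose by 2.80 (SE 0.47, adjusted p = 0.000247), and Adamts1 was higher too.

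The proteins that activate, chaperone or limit these enzymes were read as a list of 36 further genes, of which 28 were tested. From organoids to spheroids of the Sox9-Halo line, 9 of these rose and 7 fell, and in the Sox9-mEGFP line 11 rose and 5 fell, with 8 rises and 3 falls in both. Over all tested genes, 10.5% rose and 14.7% fell in the Sox9-Halo line and 8.53% rose and 7.86% fell in the Sox9-mEGFP line. The overlap between the lines was not counted over all genes. Plau and Plaur, of the plasminogen system that can start MMP cascades, rose in both. Plau, the urokinase activator, was at 0 to 7.71 normalized counts in all organoids, 905.8 to 1111 in Sox9-Halo spheroids and 67.5 to 154.4 in Sox9-mEGFP spheroids. Its receptor Plaur rose by 3.72 (SE 0.32, adjusted p = 2.65e-07) and 3.48 (SE 0.31, adjusted p = 1.32e-06). Plat (1.75, SE 0.36, adjusted p = 0.00179) and Serpine2 (4.57, SE 0.92, adjusted p = 0.00147) rose in the Sox9-mEGFP line. Plg, the zymogen that Plau and Plat act on, had too few reads to be tested.

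Of the proprotein convertases, which cut the inhibitory prodomain from ADAM and membrane-type MMP precursors, Pcsk6 rose by 3.00 (SE 0.28, adjusted p = 5.68e-07) and 2.99 (SE 0.28, adjusted p = 1.72e-06), and Pcsk5 fell by 9.91 (SE 0.84, adjusted p = 2.34e-07) and fell by 5.36 (SE 0.63, adjusted p = 1.55e-05). Furin gave 0.39 (SE 0.35, adjusted p = 0.402) and 0.28 (SE 0.35, adjusted p = 0.638). Rhbdf1, an iRhom that escorts ADAM17 to the surface, rose by 2.13 (SE 0.22, adjusted p = 2.02e-06) and 1.20 (SE 0.22, adjusted p = 0.00066), and Frmd8, an iRhom-binding protein, rose in the Sox9-Halo line (1.28, SE 0.24, adjusted p = 0.000454). Normalized counts of Frmd8 were 1598, 2116 and 1631 in Sox9-Halo organoids and 3481, 4809 and 4655 in Sox9-Halo spheroids. Halo-NLS organoids held 4443, 6853 and 5767, which overlap these spheroids. Among the tetraspanins that partner ADAM10, Tspan33 rose by 4.58 (SE 0.53, adjusted p = 5.05e-06) and 4.56 (SE 0.52, adjusted p = 1.06e-05). In the Sox9-mEGFP line Tspan5 rose by 1.21 (SE 0.25, adjusted p = 0.00164) and Tspan17 fell by 1.18 (SE 0.24, adjusted p = 0.00176). Tspan5 was at 685.8, 769.9 and 1116 in Sox9-mEGFP spheroids and 520.5, 694 and 887 in Halo-NLS organoids, which overlap. The procollagen C-proteinase enhancers Pcolce and Pcolce2 rose in both lines, by 5.02 and 6.59 and by 3.23 and 6.77, with adjusted p of at most 1.35e-05, and their protease partner Bmp1 fell in the Sox9-mEGFP line by 1.89 (SE 0.38, adjusted p = 0.00138).

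Mep1a and Mep1b, the meprin subunits, were at 2688 to 3320 and 1496 to 3194 normalized counts in Sox9-Halo organoids and at 0.89 to 1.87 and 0 to 3.56 in Sox9-Halo spheroids, and both fell there (adjusted p = 4.48e-09 and 1.36e-07). In Sox9-mEGFP spheroids they were at 662.6 to 2022 and 223.1 to 1219, and neither passed against the organoids (adjusted p = 0.0761 and 0.183). Mme, neprilysin, fell by 9.46 (SE 1.00, adjusted p = 2.13e-06) and fell by 3.17 (SE 0.71, adjusted p = 0.00327), while Papln, a relative of the ADAMTS-like proteins, fell by 6.38 (SE 0.38, adjusted p = 9.25e-09) and fell by 3.55 (SE 0.32, adjusted p = 1.36e-06). Ece1, endothelin-converting enzyme, fell in the Sox9-Halo line by 1.45 (SE 0.30, adjusted p = 0.00128). Tfpi2, a serine protease inhibitor that also limits MMPs, was at 145.2 to 290.9 normalized counts in Sox9-Halo organoids and had no count in Sox9-Halo spheroids (adjusted p = 5.68e-07), beside 139.3 to 178.9 in Sox9-mEGFP spheroids. Halo-NLS organoids held 37.5, 10.2 and 9.94 of Tfpi2, below all Sox9 organoids.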

How the data were processed

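Poly-A RNA of 15 libraries was sequenced, and, per the labels and the study's methods, the authors trimmed reads with cutadapt 4.5, aligned them to mm39 (GRCm39) with STAR, kept unique alignments and counted them on Ensembl genes with HTSeq 2.0.2 (union mode, no strand). The deposited values are raw counts per gene. Reads on more than 1 gene, 9.65% to 13.6% of a library, were not counted, and 1.83% to 6.09% lay on no gene and these summary rows were left out of library sizes and tests. Deposited normalized values and tables of fold changes and p-values were not used. Gene positions came from GENCODE M39.

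Counts were analysed with edgeR 4.0.16 and limma 3.58.1 in R 4.3.3 (filterByExpr, TMM, glmQLFit, glmQLFTest, 5 groups, 17560 genes tested), with DESeq2 1.42.0 as an alternative. SE was taken as the log2 fold change, without its sign, over the root of the F statistic. Exact 95% intervals and the limit of 3 counts for a 0 cover counting error only. TPM used the exon union length. The study describes the replicates of a group as biological triplicates from nearby passages of 1 line, so p-values measure the spread within a line and not between lines made independently. Other alternatives were other scalings, no low-count filter, a fit of the compared libraries alone and leaving out each library. Same-numbered libraries of the Sox9-Halo line deviated together (r = 0.327, 0.195 and 0.292 over 15687 genes), the other comparisons did not meet this for every pair, and blocking on the replicate number was an alternative fit throughout. Named were all TIMP genes, all members called in any of 9 comparisons, the 8 most abundant others and regulators called between organoids and spheroids, of which 1 is not reported here. Adam3, Mmp17 and the untested genes outside this rule were chosen after their values were seen. Members and lists were chosen with earlier results of these data known. Figures were drawn with matplotlib 3.10.9.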

Additional observations from a re-analysis of the deposited data

Results flagged for a closer look

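The change from organoids to spheroids differed between the Sox9-Halo and Sox9-mEGFP lines for 5 of the tested genes, by edgeR's test of the difference itself with Benjamini-Hochberg adjustment. On the log2 scale the rise in Sox9-Halo was the larger by 2.81 for Timp2, by 2.58 for Adam8 and by 2.10 for Mmp15. The Sox9-Halo change less the Sox9-mEGFP change was 2.29 for Adamts17, which fell in Sox9-mEGFP and was not called in Sox9-Halo, and -5.10 for Mmp20, which fell in Sox9-Halo and was not called in Sox9-mEGFP. The Timp2 and Mmp20 differences passed under every alternative run, while those of Adam8, Mmp15 and Adamts17 were each lost without certain single libraries, and that of Adamts17 also with no filter on low counts.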

How the results depend on the processing

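Of the 64 calls, 45 were kept under every alternative and none turned its direction. RLE scaling, library sizes alone, DESeq2 and a block for the replicate number in the 15-library fit lost no call. The block within the line lost 1, Mmp15 in the Sox9-mEGFP line. No low-count filter lost 2, Mmp11 in the Sox9-Halo line and the Adamts17 difference between the lines. A fit of only the compared libraries lost 4 against Halo-NLS, Adam10 and Adam17 in Sox9-mEGFP spheroids and Adam9 and Adam15 in Sox9-Halo organoids. Library sizes alone moved the median of all genes against Halo-NLS organoids to between 0.27 and 0.31. Calls over all genes moved between settings. In Sox9-Halo and Sox9-mEGFP organoids against Halo-NLS they were 659 and 484 in the fit used for the calls. They were 2357 and 1990 with no low-count filter, 1176 and 727 with library sizes alone, 1503 and 1225 with DESeq2 and 5 and 103 with only the libraries compared. For spheroids against their organoids they went from 4425 to 4804 and from 2879 to 3332 with no filter. Counts of family genes called moved over 1.5 times as follows, and the cause was not tested. With no low-count filter 5 genes were lower in Sox9-Halo and 4 in Sox9-mEGFP spheroids against their organoids, 2 were lower in Sox9-mEGFP spheroids against Halo-NLS, 5 higher and 2 lower in Sox9-Halo organoids, 3 higher in Sox9-mEGFP organoids, and 3 had a negative difference between the lines (Sox9-Halo less Sox9-mEGFP). Library sizes alone gave 2 and 1 higher in the Sox9-Halo and Sox9-mEGFP organoids. DESeq2 gave 2 lower in Sox9-mEGFP spheroids and 2 in Sox9-Halo organoids against Halo-NLS, 2 higher in Sox9-mEGFP organoids and 3 with a negative difference between the lines. With only the libraries compared, Sox9-Halo organoids had 0 higher and 0 lower, 7 genes were higher in Sox9-Halo than in Sox9-mEGFP spheroids, and 2 had a negative difference between the lines. The block gave 2 lower in Sox9-mEGFP spheroids against Halo-NLS. With single libraries left out, higher and lower counts ran from 8 to 12 and 0 to 3 in Sox9-Halo spheroids and from 8 to 9 and 0 to 3 in Sox9-mEGFP spheroids against their organoids. Against Halo-NLS they ran from 10 to 11 and 2 to 3 in Sox9-Halo spheroids, 10 to 12 and 0 to 2 in Sox9-mEGFP spheroids, 0 to 3 and 0 to 2 in Sox9-Halo organoids and 0 to 3 and 0 to 0 in Sox9-mEGFP organoids. Between the spheroids they ran from 3 to 4 and 4 to 4, between the organoids from 0 to 0, and for the difference between the lines from 1 to 3 and 1 to 2, below or near the 4 and 1 of all libraries. Among uncalled values, the sign turned for Timp2 in Sox9-mEGFP organoids with library sizes alone (0.0117), for Adam10 in the Sox9-Halo line with single libraries left out (-0.0793 to 0.418, negative without organoid replicate 2) and for Mmp11 in the Sox9-mEGFP line (-0.00711 to 0.469, negative without spheroid replicate 3). At these depths 54 of the 83 genes had too few reads to test, with at most 75 over all libraries.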
